A study of Mus musculus with 32 samples.

Results

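The 8 genes described here mark or accompany the passage of mouse cells out of naive pluripotency, and they were followed through early retinal organoid differentiation. They were Fgf5, Pou3f1 and Utf1, which serve as markers of the formative or primed state, the RNA-binding protein genes Lin28a and Lin28b, and the Myc family genes Myc, Mycn and Mycl. The genes were selected by symbol and are 8 of the 55492 rows of the deposited table. All 8 were among the 16276 genes tested.

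The study sequenced polyadenylated RNA of mouse embryonic stem cells (day 0) and of retinal organoids grown from them (days 2, 4 and 6), with 2 libraries in each of 16 groups. The cultures were of 4 kinds. WT is the line Rx:GFP, whose genotype the labels give as wild type. KO is labelled Mettl3 KO, a knockout of the gene whose product, METTL3, catalyses N6-methyladenosine formation on RNA. The other cultures carry a fusion of wild-type METTL3 to a domain named GRBD, overexpressed in the KO, and were kept without dexamethasone (called no Dex here) or with it at 10 µM (called Dex). Dexamethasone is a synthetic glucocorticoid, and the series' design text describes the fusion as cytosolic without it and moved to the nucleus with it. AGN was present at 0.1 µM in all cultures of days 2, 4 and 6, and no AGN is recorded for the day 0 samples. The treatment protocol names Dex for 2, 4 and 6 days only, whereas the labels also put Dex on a day 0 group, which is kept here under that label. No strain, clone number or promoter is stated in the labels. No culture without the fusion received Dex, so an effect of Dex alone and an effect of moving the fusion cannot be told apart. The labels describe separate rounds of library preparation for the duplicates but do not say that these came from separate cultures, so p-values here measure the spread between such libraries.

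As background, FGF5 is a secreted growth factor of the epiblast, and its transcript is a standard marker of cells that have left the naive state. POU3F1 (also called OCT6) is a POU-domain transcription factor of the primed epiblast and of neural progenitors, and UTF1 is a chromatin-associated protein of pluripotent cells. LIN28A and LIN28B bind the precursors of let-7 microRNAs and block their maturation, and mature let-7 in turn represses growth genes, Lin28a and Lin28b among them. MYC, MYCN and MYCL are transcription factors that pair with MAX, bind E-box sequences and promote ribosome production and growth, while the MXD proteins compete for MAX.

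The let-7 family is the link between the Lin28 genes and several genes measured below, and its mature arms share a seed, bases 2 to 8 from the 5′ end, which is what pairs with a target. Of the 9 mature arms found in RefSeq (GRCm38.p6), all 9 carry the same seed, shown here in capitals for 3 of them. MicroRNAs themselves were not measured in these polyadenylated libraries.
mmu-let-7a-5p: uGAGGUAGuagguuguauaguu
mmu-let-7g-5p: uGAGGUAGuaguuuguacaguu
mmu-miR-98-5p: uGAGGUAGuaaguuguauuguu

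Promoter sequences from RefSeq (GRCm38.p6) were matched for 6 of the 8 genes, Fgf5, Utf1, Lin28a, Lin28b, Mycn and Mycl; Pou3f1 and Myc had no entry. The 250 bases before the start site were searched on both strands for the E-box CACGTG, the octamer ATGCAAAT, the SOX motif ACAATG, the TCF motif CTTTGAT, the GC box GGGCGG and the TATA box TATAAA. Fgf5 and Lin28b are shown because they are the member with the widest range of levels and the only one of the 6 with the E-box that MYC proteins bind. The Fgf5 window (chr5:98253934-98254183, plus strand) holds a single GC box, 74 bases before the start site, in capitals as it reads on this strand; 32.7% of 32851 promoter windows of this length hold one. The Lin28b window (chr10:45470202-45470451, minus strand) holds a single E-box, 49 bases before the start site, in capitals; 6.02% of windows hold one. It lies upstream of the protein-coding transcript and within an intron of longer noncoding transcripts of the same gene.
Fgf5: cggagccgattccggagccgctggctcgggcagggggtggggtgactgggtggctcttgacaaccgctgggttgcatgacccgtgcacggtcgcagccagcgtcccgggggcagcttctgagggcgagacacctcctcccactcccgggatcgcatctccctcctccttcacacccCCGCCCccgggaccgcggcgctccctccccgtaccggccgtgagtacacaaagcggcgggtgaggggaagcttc
Lin28b: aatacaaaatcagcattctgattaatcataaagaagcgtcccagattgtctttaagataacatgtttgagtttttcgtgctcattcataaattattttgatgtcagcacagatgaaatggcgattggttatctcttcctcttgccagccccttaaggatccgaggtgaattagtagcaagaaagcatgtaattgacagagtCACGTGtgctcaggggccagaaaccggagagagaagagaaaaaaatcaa
GC boxes were also present in the windows of Utf1 (4 matches), Mycn (2) and Mycl (1). A SOX motif lay in that of Lin28a and a TATA box in that of Mycl. The start site used is that of the promoter entry. The Mycl window lies within the annotated span of its gene, and those of Utf1, Lin28a and Mycn partly overlap theirs. The octamer and the TCF motif had no match in any of the 6 windows; 1.60% and 3.21% of all windows hold them.

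Libraries held an estimated 27.7 M to 53.2 M fragments (median 36.9 M). Pearson's r across genes was 0.9922 to 0.9955 for the 2 libraries of a group. Mettl3 mRNA stood at 43.4 FPKM in KO and 35.0 FPKM in WT at day 0, so the knockout is known from the labels alone. Levels are in FPKM, fragments scaled for transcript length and for the mapped fragments of the library, and differences are differences of log2(FPKM + 1), which understate changes at low levels. A gene is said to be called, or to have risen or fallen, at an adjusted p under 0.05 in limma with Benjamini-Hochberg adjustment. In these bulk samples fewer cells of a type and less RNA per cell cannot be told apart. The stem cell markers Pou5f1, Nanog and Zfp42 summed to between 1457 and 1735 FPKM in day 0 libraries and to between 21.6 and 66.2 FPKM at day 6. The eye field markers Rax, Six3, Six6 and Lhx2 summed to between 538 and 570 FPKM in WT at day 6 and to between 5.58 and 6.27 FPKM in KO.

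All 8 genes changed between day 0 and day 2 in each line. In WT 7 rose and only Myc fell (63.4% of all tested genes were called), in KO 7 rose and Myc fell (65.6%), and in Dex 7 rose and Myc fell (60.6%). In no Dex 6 rose and Myc and Utf1 fell (67.9%). From day 2 to day 4 Fgf5 and Mycl took opposite directions in WT and in the other lines. The plot of levels by day shows a sharp peak of Fgf5 and Pou3f1 at days 2 to 4, a fall of Utf1 from day 2, and a steady rise of Lin28b and, outside WT, of Mycl.

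**Figure D1:**
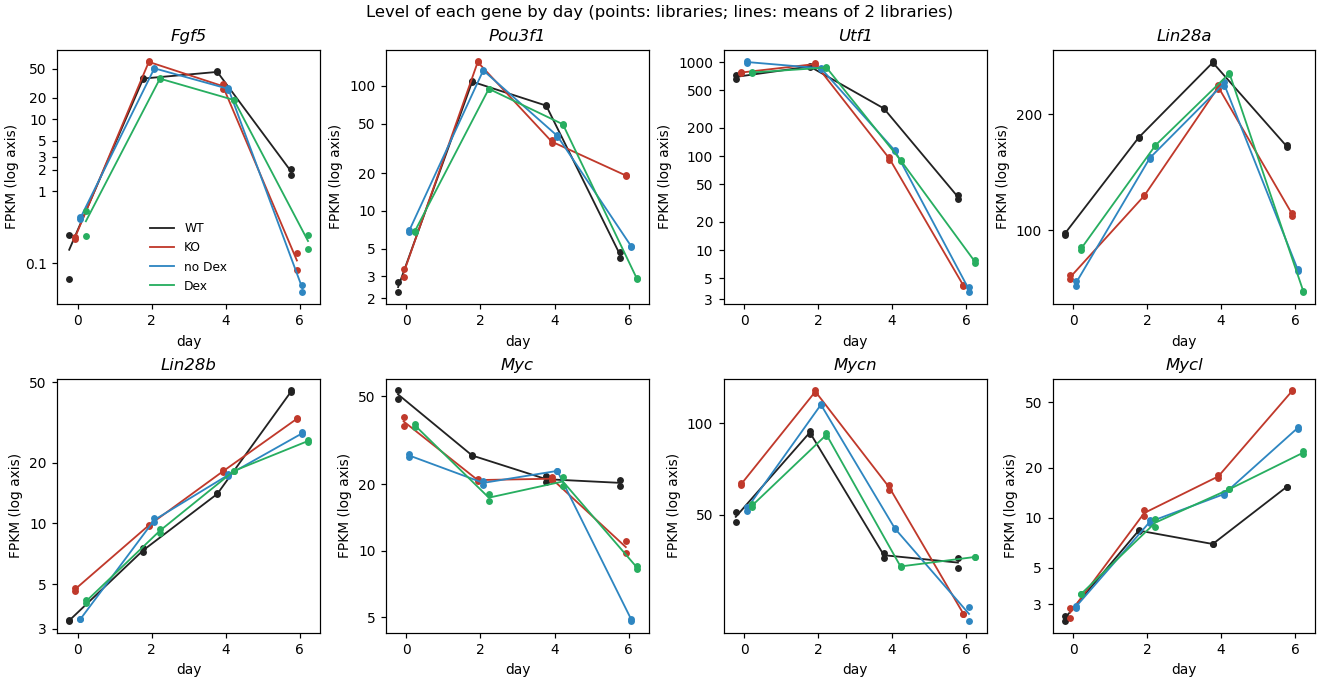
Level of each of the 8 genes in FPKM (log axis) against day (0 to 6) in WT, KO, no Dex and Dex; points are the 2 libraries of a group, shifted sideways by line, and lines join their means. Fgf5 reached 62.5 FPKM in KO at day 2 and 45.4 FPKM in WT at day 4, and Mycl reached 58.6 FPKM in KO at day 6 against 15.4 FPKM in WT.

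Between day 2 and day 4, 3 of the 8 rose and 5 fell in WT (59.9% of tested genes called), 3 rose and 4 fell in KO (64.2%), and 4 rose and 4 fell in both no Dex (60.8%) and Dex (66.7%). Between day 4 and day 6, 2 rose and 4 fell in WT (66.7%), 2 rose and 6 fell in KO (65.3%), 2 rose and 6 fell in no Dex (67.9%), and 3 rose and 5 fell in Dex (65.1%). Over the whole course, day 6 against day 0, 5 rose and 3 fell in WT (78.1%), 4 rose and 3 fell in KO (80.4%), 3 rose and 5 fell in no Dex (81.9%), and 2 rose and 5 fell in Dex (80.4%). The members' shares lie near or above these backgrounds, and since most genes were called in every step the sizes of the changes carry more than the counts. From day 0 to day 6 the log2 change was 1 or more in size for 5 of 8 members in WT and 6 of 8 in KO, against 28.5% and 32.4% of all tested genes.

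Comparisons between the lines called most of the 8 genes as well, except no Dex against KO at day 4. KO against WT called 6 at day 0 (4 higher, 2 lower; 48.2% of all tested genes), 7 at day 2 (5 and 2; 58.9%), 7 at day 4 (3 and 4; 60.5%) and 8 at day 6 (2 and 6; 65.1%). No Dex against KO called 6 at day 0 (2 and 4; 49.1%), 7 at day 2 (2 and 5; 37.0%), 3 at day 4 (1 and 2; 26.7%) and 5 at day 6, all lower (49.0%). Dex against no Dex called 5 at day 0 (4 and 1; 43.4%), 6 at day 2 (1 and 5; 44.3%), 6 at day 4 (2 and 4; 40.2%) and 7 at day 6 (3 and 4; 42.7%). Dex against WT called 8 at day 0 (6 and 2; 49.8%), 5 at day 2 (2 and 3; 29.4%), 7 at day 4 (2 and 5; 44.7%) and 7 at day 6 (1 and 6; 61.4%). Neighbouring comparisons in this chain share libraries, so their values are given side by side and not combined. Fitted on the compared groups alone, the counts fell to 4 in KO against WT at day 0 and to 4 in no Dex against KO at day 2. For Dex against no Dex they fell to 3 at day 0, 4 at day 2 and 5 at day 4. For Dex against WT they fell to 4 at day 0 and 4 at day 2. Leaving out KO replicate 1 or no Dex replicate 2 at day 2 took the no Dex against KO count to 3, and leaving out replicate 1 of WT or of Dex took the Dex against WT count at day 2 from 5 to 3.

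**Figure D2:**
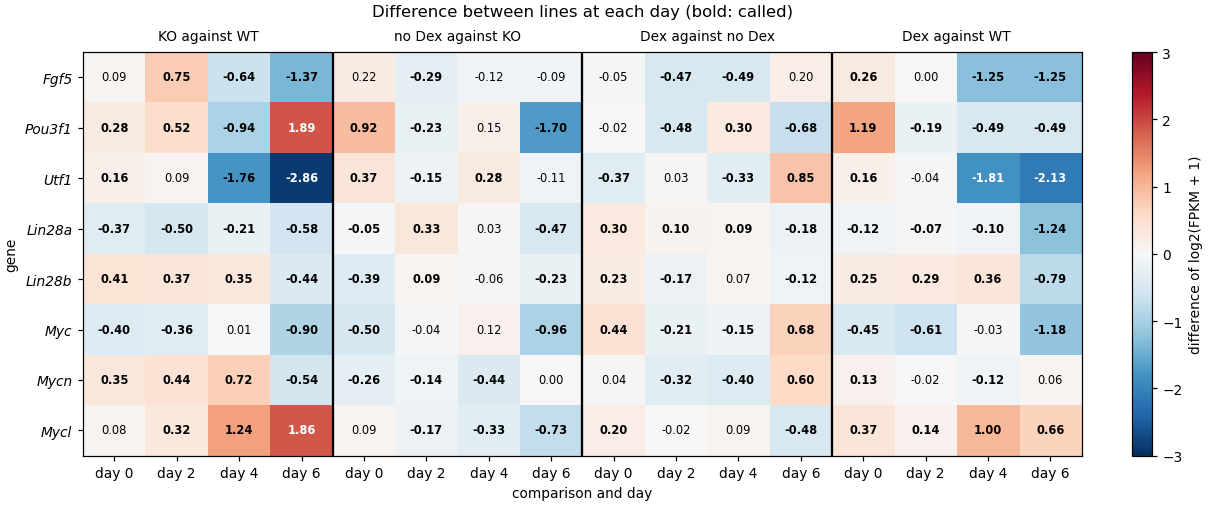
Differences of log2(FPKM + 1) for the 8 genes (rows) in 4 comparisons at days 0, 2, 4 and 6 (columns); red is higher in the first-named line, blue lower, and bold values were called. At day 6 the entries of KO against WT include -2.86 for Utf1, 1.89 for Pou3f1 and 1.86 for Mycl, and that of Dex against WT for Utf1 is -2.13.

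Fgf5 (ENSMUSG00000029337; GRCm38 chr5:98254184-98277030, plus strand, 3 exons) encodes the epiblast growth factor. It was almost silent in stem cells, at 0.06 and 0.25 FPKM in the WT libraries, 0.23 and 0.22 in KO, 0.44 and 0.41 in no Dex and 0.53 and 0.24 in Dex. At day 2 it stood at 35.74 and 37.67 FPKM in WT, 61.64 and 63.38 in KO, 51.8 and 49.96 in no Dex and 35.74 and 37.42 in Dex. KO and no Dex were thus above WT without overlap, while the Dex libraries lay among the WT ones.

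KO exceeded WT at day 2 by 0.75 ± 0.09 (SE) on the log2 scale (limma adjusted p = 6.39e-07). Dex was below no Dex by a difference of -0.47 ± 0.09 (limma adjusted p = 3.20e-04), and Dex against WT gave 0.00 with a 95% interval from -0.19 to 0.18 (adjusted p = 0.988). The Dex against no Dex calls at days 2 and 4 were lost with a pseudocount of 0.1 (adjusted p = 0.169 and 0.151).

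At day 4 WT had moved from among the lowest lines to the highest. Fgf5 read 44.73 and 46.16 FPKM in WT against 31.05 and 26.64 in KO, 27.16 and 25.68 in no Dex and 18.41 and 18.67 in Dex. WT had risen further from day 2 to day 4, 1.24-fold, a call lost with a pseudocount of 0.1 (adjusted p = 0.343) or without WT replicate 1 of day 2 (0.0563), whereas the other lines fell to 0.461 (KO), 0.519 (no Dex) and 0.507 (Dex) of their day 2 means. KO lay below WT by a difference of -0.64 ± 0.09 (limma adjusted p = 4.17e-06), and no Dex against KO was not called (-0.12, adjusted p = 0.377). Dex lay below no Dex by a further -0.49 ± 0.09 (limma adjusted p = 2.24e-04).

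By day 6 the gene was close to silent again except in WT, with 2.06 and 1.68 FPKM. KO read 0.08 and 0.14, no Dex 0.05 and 0.04, and Dex 0.16 and 0.25 FPKM. A count of 3 fragments corresponds to between 0.025 and 0.049 FPKM of Fgf5 across libraries, so the no Dex libraries sat at about that floor, a limit that covers counting error only. KO differed from WT by -1.37 ± 0.09 (limma adjusted p = 7.23e-11) and Dex from WT by -1.25 ± 0.09 (adjusted p = 4.31e-10). Dex against no Dex did not pass the threshold at day 6 (0.20, adjusted p = 0.0757), but did with a pseudocount of 0.1 (1.06, adjusted p = 0.00374).

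Pou3f1 (ENSMUSG00000090125; chr4:124656807-124660655, plus strand, a single exon) encodes the POU factor OCT6. The antisense gene Gm2164 overlaps it and reached 0.220 FPKM in its highest library. Stem cells had 2.24 and 2.68 FPKM in WT, 3.46 and 2.94 in KO, 7.08 and 6.82 in no Dex and 6.88 and 6.84 in Dex, so both cultures with the fusion lay above WT and KO. At day 2 the level had risen to 108.9 and 106.97 FPKM in WT, a 43.9-fold change, and to 156.76 and 154.11 in KO, 130.55 and 134.66 in no Dex and 95.1 and 94.32 in Dex. No groups overlapped, and their order at day 2, with KO first and Dex last, was that of Fgf5, where WT and Dex could not be separated.

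No Dex exceeded KO at day 0 by 0.92 ± 0.06 (limma adjusted p = 8.54e-11), and Dex and no Dex did not differ beyond their spread there (-0.02, 95% interval -0.13 to 0.10). At day 2 KO was above WT by 0.52 ± 0.06 (adjusted p = 1.21e-07) and Dex was below no Dex by a difference of -0.48 ± 0.06 (adjusted p = 9.56e-07). Dex was then below WT by a difference of -0.19 ± 0.06 (limma adjusted p = 0.0148), a call lost in 3 of 4 refits with a library left out (highest adjusted p = 0.0853).

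At day 4 WT kept 68.93 and 70.01 FPKM of Pou3f1, Dex 48.91 and 49.72, no Dex 39.1 and 40.44, and KO 34.7 and 36.95. WT was highest and Dex next, with no overlap between those and the rest. KO against WT was -0.94 ± 0.06 (limma adjusted p = 2.24e-11) and Dex against no Dex 0.30 ± 0.06 (adjusted p = 1.93e-04). No Dex against KO, neighbours in this order whose libraries did not overlap, missed the threshold (0.15, adjusted p = 0.0556) but passed it under rescaling (0.19, adjusted p = 0.0148) and among genes averaging at least 5 FPKM (adjusted p = 0.0433).

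At day 6 Pou3f1 was higher in KO than in WT, whereas Fgf5 and Utf1 were lower. The KO libraries held 19.34 and 18.99 FPKM, no Dex 5.22 and 5.16, WT 4.67 and 4.19, and Dex 2.84 and 2.9. KO exceeded WT 4.33-fold, a difference of 1.89 ± 0.06 on the log2 scale (limma adjusted p = 3.12e-16). No Dex fell below KO by a difference of -1.70 ± 0.06 (adjusted p = 1.27e-14), and Dex fell below no Dex by a further -0.68 ± 0.06 (adjusted p = 8.98e-09), which left it under WT (-0.49 ± 0.06, adjusted p = 2.62e-07).

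The 3 POU class 3 paralogues, Pou3f2, Pou3f3 and Pou3f4, are factors of the developing nervous system. All 3 were higher in KO than in WT at day 4 (median 0.62, against 0.06 over all tested genes) and day 6 (median 2.92, against -0.03). None was called at days 0 and 2. At day 4 all 3 were still under 1 FPKM. Pou3f2 then read 0.915 FPKM in KO and 0.0650 in WT, Pou3f3 0.710 and 0.110, and Pou3f4 0.390 and 0.145. At day 6 Pou3f2 read 22.1 FPKM in KO and 2.06 in WT, and Pou3f3 23.7 and 1.75. At day 6 all 3 were lower in no Dex than in KO (median -0.35) and lower in Dex than in no Dex (median -0.50). Pou3f1 had the same directions in these comparisons, with -1.70 and -0.68. Against WT at day 6 the paralogues were all higher in Dex (median 2.26, against -0.02 over all tested genes), whereas Pou3f1 was lower (-0.49). Unlike Pou3f1 they had no peak at day 2, where the highest group mean among the 3 was 0.145 FPKM, of Pou3f3 in no Dex.

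The summed neural progenitor markers stood in another order of lines than Pou3f1. The summed level of Sox1, Pax6, Nes and Fabp7 at day 6 ran from 405 to 409 FPKM in KO and 419 to 421 in no Dex. It ran from 320 to 329 in Dex and 210 to 214 in WT, with no gene of the 4 at 0. Gene by gene, 3 of 4 were higher in KO than in WT (median 0.26) and 3 in Dex than in WT (median 0.41). No Dex against KO called 1 higher and 1 lower (median -0.05; 49.0% of all tested genes called). Dex against no Dex called 1, lower (median -0.01; 42.7%). The order of the sums was thus not that of the medians. The neural crest markers Sox10, Tfap2a and Pax3 summed to between 53.5 and 54.4 FPKM in KO, 42.2 and 43.5 in no Dex, 15.3 and 15.4 in Dex and 1.76 and 1.83 in WT, with all 3 higher in KO than in WT. Whether cells of these kinds carry the Pou3f1 difference was not tested.

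Utf1 (ENSMUSG00000047751; chr7:139943789-139945112, plus strand, 2 exons) encodes the chromatin-associated pluripotency protein and reached the highest level of the 8, 1001 FPKM in no Dex at day 0. Its timing differed from that of Fgf5 and Pou3f1, since it was already high in stem cells. WT libraries held 727.59 and 663.14 FPKM at day 0, KO 757.29 and 790.93, no Dex 986.39 and 1014.96, and Dex 763.32 and 787.01. From day 0 to day 2 it changed little, by 0.37 in WT, 0.30 in KO, 0.17 in Dex and -0.22 in no Dex, all called. At day 2 all libraries lay between 850.83 and 978.89 FPKM, and neither KO against WT (0.09, adjusted p = 0.144) nor Dex against no Dex (0.03, adjusted p = 0.715) was called; under rescaling the first turned to -0.03 and the second was called (0.14, adjusted p = 0.0242).

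The fall of Utf1 was then slower in WT than in the other lines. At day 4 WT held 320.55 and 321.06 FPKM, against 91.16 and 96.8 in KO, 115.88 and 112.28 in no Dex and 89.45 and 91.71 in Dex. All 3 other groups thus stood below WT without overlap. KO against WT was -1.76 ± 0.05 (limma adjusted p = 6.16e-16), no Dex was above KO by 0.28 ± 0.05 (adjusted p = 3.54e-04), and Dex was below no Dex by a difference of -0.33 ± 0.05 (adjusted p = 2.60e-05).

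At day 6 WT held 38.37 and 35.18 FPKM of Utf1, KO 4.21 and 4.16, no Dex 3.57 and 4.03, and Dex 7.87 and 7.37. KO stood at 0.114 of the WT mean (-2.86 ± 0.05, limma adjusted p = 1.22e-19). Dex was 2.01-fold above no Dex (0.85 ± 0.05, adjusted p = 9.30e-11) and at 0.207 of WT (-2.13 ± 0.05, adjusted p = 2.92e-17). No Dex against KO missed the threshold (-0.11, adjusted p = 0.0674) but passed it with a pseudocount of 0.1 (-0.14, adjusted p = 0.0384) and without no Dex replicate 2 (-0.18, adjusted p = 0.0123), and was -0.04 without no Dex replicate 1. From day 0 to day 6 the fall was -4.20 in WT, -7.22 in KO, -7.71 in no Dex and -6.49 in Dex, so that no Dex ended at 0.00380 of its stem cell level.

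Another 12 genes of the formative or primed state were followed beside these. From day 0 to day 2 of WT, Sox3, Lef1, Sall2, Otx2, Dnmt3b, Grhl2, Zic2, Foxd3 and Dnmt3a were higher and Tcf15, Etv4 and Etv5 lower. KO against WT called 10 at day 0 (6 higher, 4 lower; median 0.09, against -0.04 over all tested genes), 9 at day 2 (5 and 4; median 0.09, equal to that of all tested genes), 11 at day 4 (3 and 8; median -0.45, against 0.06 over all tested genes) and 10 at day 6 (3 and 7; median -0.30, against -0.03). For this and the other lists, the shares of all tested genes called in KO against WT were 48.2%, 58.9%, 60.5% and 65.1% at days 0, 2, 4 and 6. Dnmt3b, a de novo DNA methyltransferase, was lower in KO at all 4 days, by a difference of -0.90, -1.06, -1.23 and -1.11, with 425 FPKM in WT and 203 in KO at day 2. Tcf15, a helix-loop-helix factor of cells leaving the naive state, was higher in KO at day 2 (0.92) and lower at day 4 (-0.88) and day 6 (-2.02). Foxd3, a forkhead factor of the epiblast and of the neural crest, was 2.16 higher in KO at day 6. Dex against no Dex called 10 of 12 at day 0 (8 higher, 2 lower) and 8 at day 2 (1 higher, 7 lower). Tcf15 differed most at day 2 (-1.09). Of all tested genes 43.4% and 44.3% were called at these days. Among those calls 62.9% were higher at day 0 and 28.7% at day 2, and 48.2% and 50.2% under rescaling. The list thus leaned the same way as all called genes did before rescaling.

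FGF5 signals through FGF receptors, encoded by 4 genes. Fgfr1, Fgfr2 and Fgfr3 were higher in KO than in WT at day 6, by 0.81, 1.63 and 2.35, and Fgfr4 was lower (-0.57). Fgfr2 read 100 FPKM in KO and 31.6 in WT. At day 0 all 4 had been lower in KO (median -0.51, against -0.04 over all tested genes).

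Lin28a (ENSMUSG00000050966; chr4:134003330-134018841, minus strand, 4 exons) encodes the main let-7 blocker of stem cells. The noncoding gene Gm13061 overlaps it on the other strand and reached 0.30 FPKM in its highest library. In each line Lin28a rose to day 4 and fell by day 6. WT libraries held 98.43 and 97.58 FPKM at day 0, 173.75 and 174.76 at day 2, 271.03 and 273.76 at day 4 and 164.82 and 166.16 at day 6. WT was the highest line at every day, without overlap with any other.

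KO held 74.79 and 76.57 FPKM of Lin28a at day 0, 123.42 and 122.47 at day 2, 237.99 and 231.82 at day 4 and 111.08 and 109.23 at day 6. It was thus lower than WT at all 4 days, by differences of -0.37, -0.50, -0.21 and -0.58, each ± 0.02 (limma adjusted p from 1.83e-15 to 9.77e-09). No Dex held 71.85 and 74.1 FPKM, then 155.37 and 153.53, 242.57 and 236.6, and 78.51 and 79.49 at the 4 days. Dex held 89.14 and 90.69, then 164.99 and 166.12, 255 and 254.69, and 69.57 and 69.24.

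At day 2 no Dex was above KO by 0.33 ± 0.02 (limma adjusted p = 6.30e-10) and Dex above no Dex by 0.10 ± 0.02 (adjusted p = 2.92e-04), with Dex still below WT by a difference of -0.07 ± 0.02 (adjusted p = 0.00637). The last call was lost under rescaling (-0.04, adjusted p = 0.0878). At day 6 the order was WT, KO, no Dex, Dex, with no overlap: no Dex was below KO by a difference of -0.47 ± 0.02 (adjusted p = 2.74e-13), Dex below no Dex by -0.18 ± 0.02 (adjusted p = 2.22e-07), and Dex at 0.419 of the WT mean (-1.24 ± 0.02, adjusted p = 8.64e-20). The small no Dex against KO difference at day 0 (-0.05, adjusted p = 0.0301) turned to 0.08 under rescaling (adjusted p = 0.00133). From day 0 to day 6 Lin28a rose in WT (0.75) and KO (0.54) and fell in Dex (-0.37), while the no Dex change of 0.11 turned to -0.17 under rescaling.

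Lin28b (ENSMUSG00000063804; chr10:45376620-45486395, minus strand), the paralogue of Lin28a, rose at every step in every line. WT libraries held 3.31 and 3.28 FPKM at day 0, 7.51 and 7.22 at day 2, 14.11 and 13.92 at day 4 and 45.62 and 44.83 at day 6, a 13.7-fold rise over the course. KO held 4.8 and 4.61, 9.71 and 9.85, 18.31 and 17.9, and 33.24 and 32.77. KO was therefore above WT up to day 4 and below it at day 6, without overlap at any day.

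The KO against WT differences of Lin28b were 0.41, 0.37, 0.35 and -0.44 at days 0, 2, 4 and 6, each ± 0.03 (limma adjusted p from 8.61e-11 to 4.49e-09). The step from day 4 to day 6 was 3.23-fold in WT, 1.82-fold in KO, 1.62-fold in no Dex and 1.41-fold in Dex. At day 6 no Dex held 27.81 and 28.25 FPKM and Dex 25.44 and 25.86. No Dex was below KO by a difference of -0.23 ± 0.03 (adjusted p = 2.41e-06), Dex below no Dex by -0.12 ± 0.03 (adjusted p = 0.00210) and Dex below WT by -0.79 ± 0.03 (adjusted p = 2.46e-14), which gives the same order of lines as for Lin28a.

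FPKM is scaled by transcript length, so the paralogues are set side by side. Other differences between genes in how they are measured were not corrected, so such shares are approximate. Lin28b made up 3.25% of the summed Lin28 FPKM in WT stem cells, 5.85% in KO, 4.39% in no Dex and 4.36% in Dex (means of 2 libraries). At day 6 its share was 21.5% in WT, 23.1% in KO, 26.2% in no Dex, and 26.8% and 27.2% in the Dex libraries. Summed Lin28 levels at day 6 were 211 ± 0.39 FPKM in WT, 143 ± 1.6 in KO, 107 ± 1.0 in no Dex and 95.1 ± 0.064 in Dex (SD, n = 2).

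Of 8 genes that make or destroy let-7, KO against WT called 2 at day 0 (1 higher, 1 lower), 8 at day 2 (5 and 3; median 0.28, against 0.09 over all tested genes), 7 at day 4 (5 and 2; median 0.21, against 0.06) and 6 at day 6 (3 and 3; median -0.06), so the day 0 count lay under the 48.2% of all tested genes called. Tut4, the uridylyl transferase that LIN28A recruits to let-7 precursors, was higher in KO at day 2 (0.77), day 4 (0.55) and day 6 (0.41). Dis3l2, the exonuclease that degrades the uridylated precursors, was higher at day 2 (0.36), day 4 (0.19) and day 6 (0.33). Ago2, which carries mature microRNAs, was lower in KO at all 4 days, with 13.1 FPKM in WT and 7.70 in KO at day 6. At day 2 Dex against no Dex called 7 of the 8 (2 higher, 5 lower), Tut4 among the lower (-0.39). The median was -0.23, against -0.08 over all tested genes, of which 44.3% were called. Of all called genes 28.7% were higher, and 50.2% under rescaling.

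The 10 genes listed as known let-7 targets were called in both directions at each day. KO against WT called 9 at day 0 (2 higher, 7 lower; median -0.16, against -0.04 over all tested genes), 7 at day 2 (1 and 6; median -0.20, against 0.09), 10 at day 4 (6 and 4; median 0.23, against 0.06) and 8 at day 6 (2 and 6; median -0.18, against -0.03), beside 48.2%, 58.9%, 60.5% and 65.1% of all tested genes. Hmga2, a chromatin architectural protein gene, differed most: it stood at 114 FPKM in WT at day 6, 21.8 in KO, 43.4 in no Dex and 122 in Dex, with -2.34 for KO against WT and 1.48 for Dex against no Dex. Igf2bp2, which encodes an RNA-binding protein, was lower in KO at all 4 days (-0.45, -0.69, -0.56 and -1.05). Nr6a1, an orphan nuclear receptor gene, went the other way at day 6, with 20.7 FPKM in WT, 40.3 in KO, 30.5 in no Dex and 15.1 in Dex. Among the lines at day 6, Hmga2 was highest in Dex, without passing the threshold against WT (0.10, limma adjusted p = 0.0595), while both Lin28 genes were lowest in Dex.

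Myc (ENSMUSG00000022346; chr15:61985391-61990374, plus strand, 3 exons) was highest in stem cells. At day 0 it read 53.22 and 48.82 FPKM in WT, 40.21 and 36.87 in KO, 26.56 and 27.37 in no Dex and 36.46 and 37.64 in Dex. WT was highest and no Dex lowest, and KO and Dex overlapped. KO was below WT by a difference of -0.40 ± 0.06 (limma adjusted p = 1.48e-05), no Dex below KO by -0.50 ± 0.06 (adjusted p = 7.58e-07) and Dex above no Dex by 0.44 ± 0.06 (adjusted p = 4.83e-06).

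Between day 2 and day 4 the lines came together for Myc. Day 2 libraries read 27.12 and 26.89 FPKM in WT, 20.68 and 21.03 in KO, 20.79 and 19.76 in no Dex and 18.09 and 16.74 in Dex. At day 4 all 8 libraries lay between 19.68 and 23.09 FPKM, with WT at 20.44 and 21.76 and KO at 21.49 and 20.88. KO against WT gave 0.01 at day 4 with a 95% interval from -0.12 to 0.13 (limma adjusted p = 0.947), and -0.10 under rescaling (adjusted p = 0.172). Dex against no Dex was called at day 4 by a small margin (-0.15, adjusted p = 0.0454) and not under rescaling (adjusted p = 0.0804), on the compared groups alone (0.132), with no filter on low values (0.0840) or without a variance trend (0.0509), nor in 3 of 4 refits with a library left out.

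At day 6 Myc stayed at 19.69 and 20.85 FPKM in WT and dropped in the other lines, to 9.76 and 11.12 in KO, 4.94 and 4.81 in no Dex and 8.53 and 8.3 in Dex. None of the 4 groups overlapped. From day 4 the change was -0.06 in WT (adjusted p = 0.428), although -0.19 under rescaling was called (adjusted p = 0.00901), against -0.96 in KO, -2.03 in no Dex and -1.20 in Dex. KO against WT was -0.90 ± 0.06 (limma adjusted p = 6.37e-11), no Dex against KO -0.96 ± 0.06 (adjusted p = 8.26e-11), Dex against no Dex 0.68 ± 0.06 (adjusted p = 1.90e-08) and Dex against WT -1.18 ± 0.06 (adjusted p = 1.93e-12).

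Mycn (ENSMUSG00000037169; chr12:12936093-12941914, minus strand, 3 exons), the family member of neural and other embryonic progenitors, peaked at day 2. It read 94.21 and 92.22 FPKM in WT, 128.16 and 125.86 in KO, 115.37 and 114.5 in no Dex and 90.66 and 92.59 in Dex. KO was highest and no Dex next, while WT and Dex overlapped. KO was above WT by 0.44 ± 0.04 (limma adjusted p = 1.73e-08), Dex below no Dex by a difference of -0.32 ± 0.04 (adjusted p = 2.80e-06), and Dex against WT was -0.02 (95% interval -0.11 to 0.06).

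The same order held for Mycn at day 4, with 60.26 and 62.53 FPKM in KO, 44.99 and 45.08 in no Dex, 36.15 and 37.42 in WT and 33.96 and 33.65 in Dex. KO against WT reached 0.72 ± 0.04 (limma adjusted p = 1.10e-11), no Dex against KO -0.44 ± 0.04 (adjusted p = 2.87e-07) and Dex against no Dex -0.40 ± 0.04 (adjusted p = 1.97e-07). Dex was below WT by a difference of -0.12 ± 0.04 (adjusted p = 0.0229), a call lost in 3 of 4 refits with a library left out.

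Day 6 gave another order for Mycn. WT libraries held 36.11 and 33.52 FPKM, Dex 36.35 and 36.31, KO 23.51 and 23.61 and no Dex 22.35 and 24.85. WT and Dex stood above KO and no Dex without overlap. KO against WT was -0.54 ± 0.04 (limma adjusted p = 4.91e-10) and Dex against no Dex 0.60 ± 0.04 (adjusted p = 5.82e-10). Neither no Dex against KO (0.00, 95% interval -0.08 to 0.09) nor Dex against WT (0.06, 95% interval -0.02 to 0.15) was called, the second being called under rescaling (0.10, adjusted p = 0.0429) and without WT replicate 1 (0.11, adjusted p = 0.0462).

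Mycl (ENSMUSG00000028654; chr4:122995652-123002485, plus strand), the third Myc gene, was scarce in stem cells. At day 0 libraries read 2.57 and 2.38 FPKM in WT, 2.86 and 2.5 in KO, 2.87 and 2.93 in no Dex and 3.48 and 3.47 in Dex. WT and KO overlapped, and their difference missed the threshold (0.08, adjusted p = 0.185); it was 0.01 without KO replicate 1 and passed without KO replicate 2 (0.15, adjusted p = 0.0295). By day 2 the libraries lay between 8.35 and 11.17 FPKM, and KO was above WT by 0.32 ± 0.05 (limma adjusted p = 1.19e-05).

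From day 4 the KO and WT levels of Mycl diverged. WT fell to 6.94 and 6.96 FPKM at day 4, while KO rose to 17.45 and 18.07, no Dex to 14.13 and 13.76 and Dex to 14.84 and 15. At day 6 KO held 58.31 and 58.86 FPKM, no Dex 35.58 and 34.36, Dex 25.26 and 24.37 and WT 15.41 and 15.33, with no overlap. KO exceeded WT 2.56-fold at day 4 (1.24 ± 0.05, limma adjusted p = 6.81e-14) and 3.81-fold at day 6 (1.86 ± 0.05, adjusted p = 6.99e-17).

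Mycl at day 6 thus fell in the order KO, no Dex, Dex, WT. No Dex was below KO by a difference of -0.73 ± 0.05 (limma adjusted p = 3.31e-10) and Dex below no Dex by -0.48 ± 0.05 (adjusted p = 1.87e-07), with Dex still 1.61-fold above WT (0.66 ± 0.05, adjusted p = 6.97e-10). At day 4 Dex and no Dex were not separated (0.09, 95% interval -0.01 to 0.19). Over the course Mycl rose 21.9-fold in KO, 12.1-fold in no Dex, 7.14-fold in Dex and 6.21-fold in WT.

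The make-up of the family, again in approximate shares, changed with these levels. Myc, Mycn and Mycl made up 49.7%, 47.9% and 2.41% of the summed FPKM in WT stem cells, and 28.8%, 49.4% and 21.8% in WT at day 6 (means of 2 libraries). In KO at day 6 Mycl was the leading member with 63.3%, against 25.4% for Mycn and 11.3% for Myc. No Dex was similar in order, with 55.1% for Mycl and 37.2% for Mycn. In Dex Mycn led again with 52.2%, Mycl made up 35.7% and Myc 12.1%. The sum itself at day 6 was 70.5 ± 1.1 FPKM in WT, 92.6 ± 1.4 in KO, 63.4 ± 0.81 in no Dex and 69.6 ± 0.82 in Dex (SD, n = 2).

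**Figure D3:**
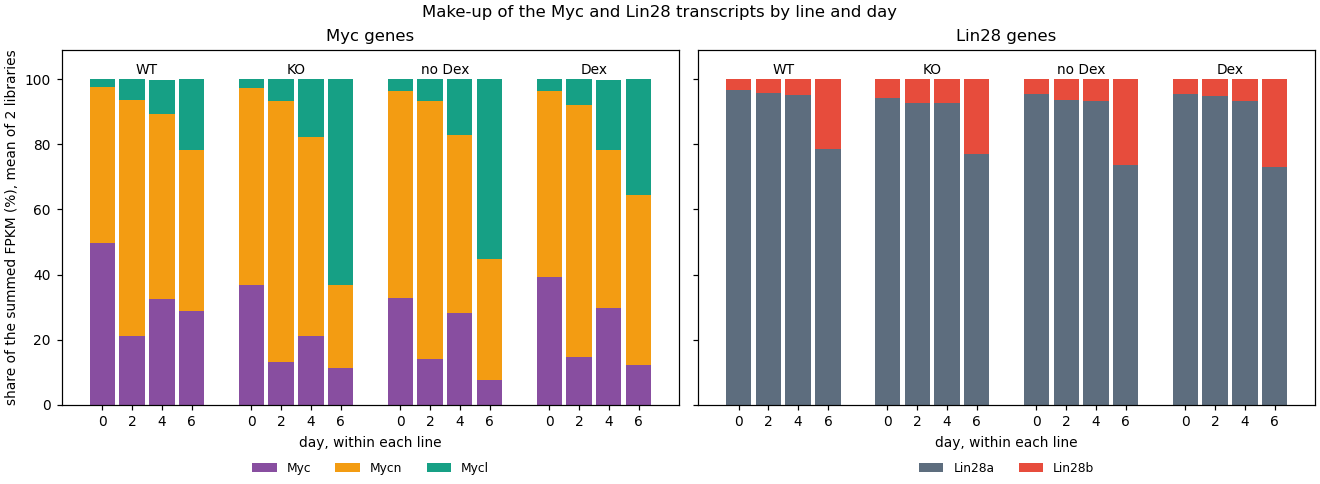
Share of the summed FPKM (%, means of 2 libraries) taken by Myc, Mycn and Mycl (left) and by Lin28a and Lin28b (right) at days 0, 2, 4 and 6 in each line. Mycl takes 63.3% of the Myc family sum in KO at day 6 and 21.8% in WT, while Lin28b takes 21.5% of the Lin28 sum in WT and 23.1% in KO at that day.

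The 9 genes of the MAX network, partners and competitors of the MYC proteins, were called in both directions. KO against WT called 6 at day 0 (1 higher, 5 lower; median -0.32, against -0.04 over all tested genes), 5 at day 2 (4 and 1), 7 at day 4 (5 and 2) and 5 at day 6 (3 and 2; median 0.11). The counts at days 2 and 6 lay near or under the 58.9% and 65.1% of all tested genes called. Max itself was higher in KO at day 2 (0.41), day 4 (0.17) and day 6 (0.18). Mxd3, a MAX-binding repressor of cycling progenitors, was 1.29 higher in KO at day 6, with 17.5 FPKM against 6.56 in WT. Mga, a large MAX partner, was lower in KO at day 0 (-0.65) and higher at day 4 (0.63). Dex against no Dex called 6 of the 9 at day 0, all higher in Dex, beside 43.4% of all tested genes. Of all genes called there 62.9% were higher, and 48.2% under rescaling.

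Of 15 genes known as MYC targets in ribosome production and metabolism, all 15 were called between day 0 and day 6 in each line, with 13 lower and 2 higher, where 78.1% to 81.9% of all tested genes were called. The median was -0.65 in WT, -1.02 in KO, -1.10 in no Dex and -0.98 in Dex, against between 0.09 and 0.17 over all tested genes. Ldha, the glycolytic lactate dehydrogenase gene, rose most in WT (1.95) and the spermidine synthase gene Srm fell most (-1.88). KO against WT called 7 at day 0, all higher (median 0.06, against -0.04 over all tested genes), 12 at day 2 (4 higher, 8 lower; median -0.11), 13 at day 4 (4 and 9; median -0.23) and 11 at day 6 (2 and 9; median -0.22, against -0.03). The day 0 count is about the share of all tested genes called (48.2%).

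Within the MYC target list the members did not move as 1 block. Bop1, a ribosome assembly gene, was lower in KO at day 2 (-0.58), day 4 (-0.85) and day 6 (-0.63), with 46.5 FPKM in WT and 29.7 in KO at day 6. Npm1, the nucleolar chaperone gene, was likewise lower (-0.53, -0.44 and -0.65). Polr1b, a subunit of RNA polymerase I, was higher in KO at all 4 days (0.18, 0.49, 0.86 and 0.52), as was the nucleolin gene Ncl (0.43, 0.46, 0.64 and 0.35). At day 6, 8 of the 15 were higher in Dex than in no Dex and 2 lower, with Bop1 highest (0.51) and Ncl lowest (-0.38). Of all tested genes 42.7% were called in that comparison, and 55.6% of those were higher.

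**Figure D4:**
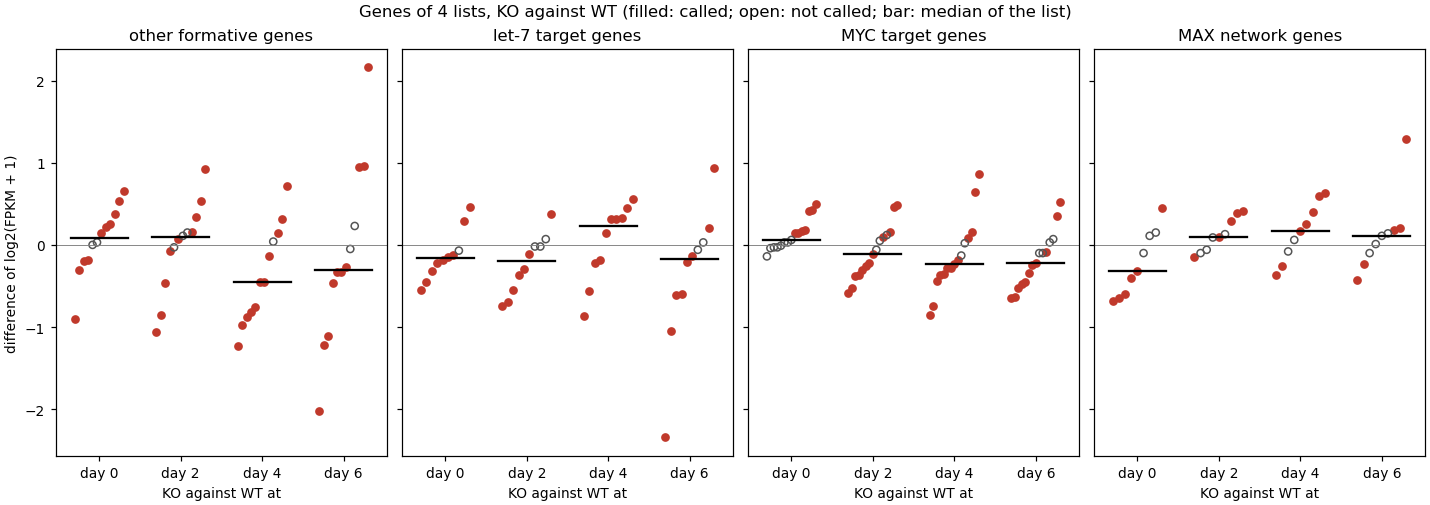
Differences of log2(FPKM + 1) between KO and WT for the genes of 4 lists at days 0, 2, 4 and 6; each point is a gene, filled where called, and the bar is the median of the list. At day 6 the medians are -0.30 for the other formative genes, -0.18 for let-7 targets, -0.22 for MYC targets and 0.11 for the MAX network, and genes lie on both sides of 0 in each list.

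Whether the line differences themselves changed from day 0 to day 6 was tested with an interaction term. In KO against WT all 8 genes were called (56.9% of all tested genes): Pou3f1 (1.61 ± 0.08) and Mycl (1.78 ± 0.07) gained in KO relative to WT, and Utf1 (-3.02 ± 0.07), Fgf5 (-1.46 ± 0.13), Mycn (-0.90 ± 0.06), Lin28b (-0.85 ± 0.04), Myc (-0.50 ± 0.08) and Lin28a (-0.21 ± 0.03) lost. For the Dex effect 7 were called (48.7%), 3 upward and 4 downward, and Fgf5 was not (0.25 ± 0.13, limma adjusted p = 0.110). The Fgf5 value passed with a pseudocount of 0.1 (1.24, adjusted p = 0.0116) and without Dex replicate 1 of day 0 (0.41, adjusted p = 0.0109), and was 0.10 without Dex replicate 2 of day 0.

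Extraembryonic endoderm markers, Gata4, Gata6, Sox17, Foxa2 and Dab2, separated WT from the other lines at every day, with all 5 lower in KO. Their sum ran from 65.5 to 65.6 FPKM in WT and was 11.8 FPKM in both KO libraries at day 6, and from 20.4 to 21.3 and 3.94 to 4.17 FPKM at day 0, with no gene at 0 in these groups. By group mean, 4 of the 5 markers were below 1 FPKM in KO and 0 in WT at day 6. At day 0 there were 3 such markers in KO and 1 in WT. The part of the extraembryonic endoderm markers in the KO against WT differences of the 8 genes was not tested. The fibroblast markers Col1a1, Col1a2, Col3a1 and Thy1 summed to at most 17.9 FPKM, and the mesendoderm markers T, Eomes, Mixl1 and Gsc to at most 13.7 FPKM in any library. Of the mesendoderm markers only Eomes and Gsc passed the filter on low values, and both were higher in KO at days 0 and 2.

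Across the 16 group means the 8 genes fell into patterns that can be described by Pearson's r of log2(FPKM + 1), given without a test because the points share lines, days and libraries. Fgf5 and Pou3f1 were most alike (r = 0.93), followed by Lin28b and Mycl (0.90). Utf1 ran with Myc (0.81) and Mycn (0.80) and against Mycl (-0.86) and Lin28b (-0.84). Lin28a and Lin28b were only weakly related (0.30), and Myc and Mycl ran opposite (-0.86).

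Among 11512 tested genes whose group means spanned at least 1 on the log2 scale, the 3 most like each member were named over the same 16 points. For Fgf5 they were Pim2 (r = 0.988), Ccdc194 (0.987) and Rassf6 (0.986), and for Pou3f1 Epha1 (0.963), Plcxd1 (0.958) and Cdk5r2 (0.944). Utf1 was closest to L1td1 (0.990), Pou5f1 (0.989) and Platr10 (0.986). Lin28a was closest to Sez6 (0.956), Nampt (0.948) and Tom1l1 (0.941), and Lin28b to Rab28 (0.988), Arnt2 (0.988) and Rnf144a (0.985). Myc was closest to Supt5 (0.939), Lactb2 (0.931) and Taf8 (0.928), Mycn to Ldhd (0.954), Ovol2 (0.946) and Rbm43 (0.946), and Mycl to Setbp1 (0.968), Zfp651 (0.966) and Tesk1 (0.963).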

How the data were processed

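The deposited table held FPKM for 55492 rows and 32 libraries, computed by the authors. Per the submitters' processing notes, STAR, Cuffdiff and mm10 were used, with versions not given. Per the labels, reads were paired-end from polyadenylated RNA. Of these rows 21161 were at 0 in every library. The size of 1 fragment in FPKM was read off low values of 6022 single-transcript genes and gave the depth; 88.8% to 93.1% of those values came within 0.2 of whole numbers (40.0% by chance). Such values are scaled by length and library, so a gene's share of the library can shift it, and no count test was used. Positions came from GENCODE M21 (GRCm38), which matched 99.5% of rows, and the builds' names were taken as the same assembly.

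Tests used limma 3.58.1 in R 4.3.3 (lmFit, contrasts.fit, eBayes with a mean-variance trend) on log2(FPKM + 1) for genes with at least 1 FPKM in at least 2 of 32 libraries. A single fit held 16 group means with 16 residual degrees of freedom and gave 34 comparisons, two-sided, with Benjamini-Hochberg adjustment over 16276 genes at 0.05. The code was tested on simulated data. With 2 libraries a group no exact test over libraries can reach 0.05, and p-values rest on the spread pooled over groups.

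The members and lists were chosen with earlier results of these data known. Named genes were the 8 members, Mettl3, members of the lists with the largest change or needed beside a member, and the 3 genes most like each member. Same-numbered libraries deviated with correlations between -0.09 and 0.13 over 120 pairs of groups, so the numbers were not taken as pairs. The fit was repeated with median-of-ratios rescaling (factors 0.871 to 1.10), on the compared groups alone, with a replicate block, without the trend, with a pseudocount of 0.1, unfiltered, on genes averaging 5 FPKM or more, and without each library. Protein sequences were not used here.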

Additional observations from a re-analysis of the deposited data

Results flagged for a closer look

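The line differences of most of the 8 genes at day 6 departed from those at day 0, by an interaction term in limma. For KO against WT the change in the difference was -1.46 for Fgf5, 1.61 for Pou3f1, -3.02 for Utf1, -0.21 for Lin28a, -0.85 for Lin28b, -0.50 for Myc, -0.90 for Mycn and 1.78 for Mycl, with 56.9% of all tested genes called. For Dex against no Dex it was -0.66 for Pou3f1, 1.21 for Utf1, -0.48 for Lin28a, -0.35 for Lin28b, 0.24 for Myc, 0.57 for Mycn and -0.68 for Mycl, with 48.7% of genes called. The Myc value did not pass in 4 of 8 refits with a library left out (highest adjusted p = 0.0756).

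Several differences had opposite signs at successive days with no overlap of libraries at either, and the difference between those days was not tested. In KO against WT, Fgf5 went from 0.75 at day 2 to -0.64 at day 4. Pou3f1 went from 0.52 at day 2 to -0.94 at day 4 and 1.89 at day 6. Lin28b went from 0.35 at day 4 to -0.44 at day 6, and Mycn from 0.72 to -0.54. In Dex against no Dex, Pou3f1 went from -0.48 at day 2 to 0.30 at day 4 and -0.68 at day 6. Between days 4 and 6 Utf1 went from -0.33 to 0.85, Lin28a from 0.09 to -0.18, Myc from -0.15 to 0.68 and Mycn from -0.40 to 0.60. Between days 0 and 2 Lin28b went from 0.23 to -0.17 and Myc from 0.44 to -0.21; both day 2 calls were lost under rescaling (-0.06 and -0.10) and on the compared groups alone (adjusted p = 0.0787 and 0.0682), as was the Lin28b call at day 0 on the compared groups alone (0.0629). The Myc call at day 2 was also lost without no Dex replicate 1 (0.0696) or Dex replicate 2 (0.0951), and that at day 4 under 5 of the other settings, rescaling among them (0.0804).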

How the results depend on the processing

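Median-of-ratios rescaling turned the direction of 9 member differences: Utf1 in KO against WT at day 2 (-0.03), Myc there at day 4 (-0.10), Lin28a in no Dex against KO at day 0 (0.08), Mycn in Dex against no Dex at day 0 (-0.05), Mycl there at day 2 (0.09), Fgf5 (0.02) and Mycn (0.01) in Dex against WT at day 2, Myc in KO from day 2 to day 4 (-0.04) and Lin28a in no Dex from day 0 to day 6 (-0.17). Of these only the 2 Lin28a differences were called as deposited. Rescaling moved the median of all genes by about 0.1 or more from day 0 to day 6 in WT (0.09 to -0.03), KO (0.09 to -0.01), no Dex (0.17 to -0.03) and Dex (0.14 to -0.01), from day 0 to day 2 in no Dex (0.10 to -0.01), from day 2 to day 4 in Dex (0.09 to -0.02) and from day 4 to day 6 in WT (0.10 to 0.00). Of all genes called, the share that was higher moved by over 10 points in KO against WT at day 2 (63.8% to 50.6%) and day 4 (60.3% to 49.7%), no Dex against KO at day 0 (39.3% to 57.2%) and day 4 (36.3% to 51.9%), Dex against no Dex at day 0 (62.9% to 48.2%) and day 2 (28.7% to 50.2%), Dex against WT at day 0 (38.2% to 49.2%), WT from day 4 to day 6 (62.5% to 51.1%), no Dex from day 0 to day 2 (61.0% to 46.8%) and to day 6 (58.6% to 48.5%), and Dex from day 2 to day 4 (61.3% to 47.8%). It raised the members called in no Dex against KO at day 4 from 3 to 5. Fits of the compared groups alone called 4 members for KO against WT (day 0) and 4 for no Dex against KO (day 2). They called 3 for Dex against no Dex at day 0, 4 at day 2 and 5 at day 4. For Dex against WT they called 4 at day 0 and 4 at day 2, and in Dex from day 2 to day 4 they called 7. Of 272 member differences 17 lost their call and 1 gained it. For KO against WT at day 0 these fits called 3357 genes in place of 7849. For no Dex against KO they called 3941 in place of 6027 (day 2) and 2284 in place of 4339 (day 4), and for Dex against WT 4342 in place of 8106 (day 0) and 2603 in place of 4782 (day 2). With a mean FPKM of at least 5, 9412 genes were tested, fewer by construction, and 14 of the 34 counts fell by over 1.5 times, for example from 12712 to 7880 in WT from day 0 to day 6. With a library left out, the members called at day 2 ran from 3 to 5 for no Dex against KO and from 3 to 4 for Dex against WT, where the remaining library of a group is assumed to vary like the other groups. The log2 differences that changed sign then, none of them called as deposited, ran from -0.03 to 0.21 for Fgf5 in KO against WT at day 0, from -0.04 to 0.05 for Myc there at day 4, from -0.07 to 0.07 for Mycn in no Dex against KO at day 6, from -0.20 to 0.10 for Fgf5 and from -0.04 to 0.01 for Pou3f1 in Dex against no Dex (day 0), from -0.09 to 0.06 for Mycl there at day 2, from -0.04 to 0.03 for Fgf5 in Dex against WT at day 2 and from -0.10 to 0.03 for Myc there at day 4. In all, 47 such refits of a member lost a call and 7 gained one. With the replicate block, 1 member difference lost its call, Myc in Dex against no Dex at day 4 (-0.15, adjusted p = 0.050), and no other did. A pseudocount of 0.1 took 5 calls and gave 6, all but 2 of these 11 at Fgf5. No filter took 3, eBayes without a trend took 2 and a mean FPKM of at least 5 gave 2. The causes were not tested. Groups of 2 libraries allow no check for outlying samples. At this depth Fgf5 in no Dex at day 6 lies at about the limit of a few fragments. KO (0.08 and 0.14 FPKM) and Dex (0.16 and 0.25 FPKM) lie above that limit, though low.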

Other observations

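The naive and core pluripotency genes, 10 in the list, fell in all 4 lines between day 0 and day 6. All 10 were called lower in each line, where 78.1% to 81.9% of all tested genes were called. Medians were -3.91 in WT, -4.60 in KO, -4.51 in no Dex and -4.34 in Dex, against between 0.09 and 0.17 over all tested genes. At day 2 Fgf5 and Pou3f1 were near their peak. There 9 of the 10 were lower in Dex than in no Dex (median -0.59, against -0.08 over all tested genes). In that comparison 44.3% of all tested genes were called. Of these calls 28.7% were higher in Dex, and 50.2% under rescaling. Nanog, a naive state factor, read 15.7 FPKM in WT, 33.4 in KO, 31.7 in no Dex and 16.8 in Dex at that day, an order in which KO and no Dex lay above WT and Dex, as for Mycn. Klf2 read 56.9, 111, 81.1 and 54.9 FPKM in the same order of lines. Pou5f1, which encodes the POU factor OCT4 and was among the genes most like Utf1, stood at 399 FPKM in WT, 202 in KO, 218 in no Dex and 85 in Dex at day 4, and at 37.9, 11.7, 12.8 and 13.8 FPKM at day 6. In Dex against no Dex at day 6 Pou5f1 was not called (0.09), and Utf1 was higher (0.85); the 2 differences were not tested against each other.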
